A study of Mus musculus with 24 samples.

Results

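The comparison described here is that of HBC-3 cells after 4 days on Matrigel with the same cells at day 0. Its means rest on 6 of the series' 24 arrays, the 3 titled time 4 and the 3 titled time 0. Each set is lettered A, B and C, and the arrays were chosen by title alone. The spread behind the standard errors and p-values was taken from all 24 arrays. HBC-3 is a mouse hepatoblast line, and Matrigel is a gel of basement membrane proteins. The series follows the line at day 0 and on days 1 to 7 of differentiation on that gel.

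Both groups were cultures of the one line, and the labels used here name no transgene. Before RNA was taken, undifferentiated cells were separated from their STON+ feeder cells with trypsin and replated on plastic in a medium named HBM, and they were harvested the following morning. A remainder of feeder RNA in either group is not described in the labels. Every array carried a Cy5 target from its own sample and a Cy3 target made from HBC-3 cells before differentiation, so that the day 0 arrays set the undifferentiated state against itself. The RNA was amplified before labelling. The labels do not say whether arrays sharing a day stand for different cultures, and the p-values measure only the spread between arrays, which may be technical.

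Hepatoblasts are the fetal liver cells that give rise to hepatocytes and to bile duct cells. They make alpha-fetoprotein and growth factors of the fetal liver, divide, and on maturing leave the cell cycle and begin to secrete plasma proteins and to burn fatty acids. Cells on stiff plastic spread and build actin stress fibres anchored at focal adhesions. On a soft basement membrane gel epithelial cells round up or form cords, and their adhesions are remodelled.

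Values are deposited log ratios of sample to reference with the median of each array set to 0, and a gene's value is the mean over its array features. Base 2 and a ratio of Cy5 over Cy3 are likely from the range of the values and the dyes in the labels, but neither is stated, so scale, centring and direction rest on this reading. A change is the day 4 mean minus the day 0 mean and is given ± the standard error of the fit, with 3 arrays a day unless stated. A gene "rose" or "fell" where limma's adjusted p (Benjamini-Hochberg over 10639 genes and unnamed features, 2-sided) was below 0.05. Because a ratio compares a feature with itself, no gene's level is set against another's, and in RNA from whole cultures fewer cells of a type cannot be told apart from less of a transcript per cell.

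Of the 24157 features, the day 0 arrays held values for 15310 to 19189 and the day 4 arrays for 12443 to 18327, the fewest on day 4 array B. The log ratios had an SD of 0.332 to 0.473 at day 0 and of 0.768 (A), 0.825 (B) and 0.998 (C) at day 4. Array C stood apart at day 4. Across features it correlated at 0.50 with A and at 0.50 with B, while A and B correlated at 0.72, and it was closest to array C of day 5 (0.97). At day 0 arrays A and B correlated at 0.76, B and C at 0.08, and A and C at -0.34, although both channels of these arrays held the same kind of cell. The dyes are stated, so the direction was kept, and the changes were also computed once with all day 0 signs turned. Of 109 named genes with a call, 60 kept it under that reversal, 48 no longer passed and 1 changed sign. Those with values in the text are given where they are described or together after the last gene group. Genes said to be named or picked after their values were seen are not among the 109. Whether their calls held in the alternative fits is not given.

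At day 4, 1273 of 5660 genes differed from day 0 (22.5%), with 705 higher (12.5%) and 568 lower (10.0%). Over all units, 2359 of 10639 passed (22.2%), 1201 of them higher. Changes above 1 were found for 477 genes that rose and 384 that fell, above 2 for 113 and 55, and above 3 for 29 and 8. Among the 4771 genes with all 6 values, the 3 arrays of day 4 did not overlap the 3 of day 0 for 1682 (35.3%), and 1026 genes both passed the test and did not overlap. Where a called gene had more than 1 feature, all its features with values on both days moved the same way for 601 of 622 genes. Some of the 622, such as Fst, had only 1 such feature, and the calls rest on the mean of these same features. The median change over all genes was 0.06, and the median standard error was 0.317. The count of units depended on single arrays. It was 1228 when day 0 array B was left out, 1424 when day 0 array A was, and 1487 when day 4 array C was. Of all genes, 7.16% then rose and 5.34% fell in the first case, 7.54% and 6.70% in the second, and 8.62% and 6.43% in the third.

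Among genes with all 6 values, Clu rose most. Clu, the secreted chaperone clusterin, had values of -1.04, -1.45 and -0.30 at day 0 (in the order A, B, C, as throughout) and of 5.48, 6.31 and 6.79 at day 4, a rise of 7.12 ± 0.54 (adjusted p = 4.79e-08). All 3 arrays of day 4 lay far above those of day 0, and C was the highest of them. Selenop, the plasma protein that carries selenium from the liver, went from -0.78, -1.14 and -0.56 to 3.46, 3.40 and 4.96 (4.77 ± 0.47, adjusted p = 1.14e-06). Nrep, a small protein described in regenerating nerve and in TGF-beta responses, went from -2.23, -1.73 and -0.34 to 2.38, 3.43 and 4.25 (4.78 ± 0.69).

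Dcn, which encodes decorin, a small proteoglycan of connective tissue that fibroblasts make, had values of -2.72, -3.34 and -0.54 at day 0 and of 2.38, 2.34 and 3.50 at day 4. Its change was 4.94 ± 0.68 (adjusted p = 5.09e-05), from a mean of -2.20 to one of 2.74, so that day 0 itself lay far from the reference. Once all day 0 signs were turned, the change was 0.54 and did not pass (adjusted p = 0.656). Il33, a cytokine stored in the nucleus, stood likewise at -1.95, -1.97 and -0.56 at day 0 and at 0.88, 2.70 and 3.11 at day 4 (3.72 ± 0.79), and did not pass with those signs turned (0.74, adjusted p = 0.591). Nrep fell short in the same way (1.92, adjusted p = 0.07).

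H19, the imprinted non-coding RNA of fetal liver, differed from these in that its day 0 values lay near 0. They were 0.03, -0.35 and 0.25, against 4.33, 5.78 and 3.20 at day 4 (4.46 ± 0.84, adjusted p = 0.000804). Here array C was the lowest of the day. The other genes among the 12 with the largest rises were Tmem176a (3.92 ± 0.64), a membrane protein, Fzd1 (3.67 ± 0.65), a Wnt receptor, Abhd4 (3.64 ± 0.43), a lipid hydrolase, and Ldhb (3.64 ± 0.58), a lactate dehydrogenase subunit. Pnrc1 (3.42 ± 0.51), a nuclear receptor cofactor, and Dtx4 (3.31 ± 0.43), an E3 ubiquitin ligase of the Deltex family, completed them.

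The largest fall among genes with all 6 values was that of Cemip. Cemip, needed for the breakdown of hyaluronan, went from 0.92, 1.25 and 0.27 to -3.94, -4.48 and -3.98 (-4.95 ± 0.44, adjusted p = 6.7e-07). All 3 arrays of day 4 lay close together, far below those of day 0. Prss23, a secreted serine protease, went from -0.21, -0.21 and -0.21 to -3.77, -4.21 and -3.36 (-3.57 ± 0.47), and Upk1b, a uroplakin of epithelial membranes, from 0.15, -0.05 and -0.26 to -3.21, -4.46 and -3.19 (-3.57 ± 0.64). Gadd45g, a stress and growth arrest gene, went from -0.41, 0.52 and 0.34 to -3.00, -3.07 and -4.30 (-3.61 ± 0.37).

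Zyx and Actn1, which encode the focal adhesion proteins zyxin and alpha-actinin, fell on all 3 arrays but to different depths. Zyx stood at -1.54, -3.37 and -4.50 at day 4, against 0.79, 1.14 and 0.26 at day 0 (-3.87 ± 0.70). Actn1 stood at -1.29, -2.58 and -4.25, against 1.30, 0.98 and -0.25 (-3.38 ± 0.73), and did not pass with all day 0 signs turned (-2.03, adjusted p = 0.0673). In both, array C was the lowest and A the highest of day 4. The others were Fhl1 (-2.97 ± 0.71), Amotl2 (-2.94 ± 0.35), Aif1l (-2.90 ± 0.42), Tpm2 (-2.87 ± 0.42), Cav1 (-2.86 ± 0.36) and Bok (-2.86 ± 0.33). They encode a LIM protein of muscle and stress fibres, an angiomotin of cell junctions, an actin bundling protein, a tropomyosin, caveolin and a cell death protein of the Bcl-2 family. Fhl1 alone among these did not pass with all day 0 signs turned (-1.35, adjusted p = 0.218).

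**Figure D1:**
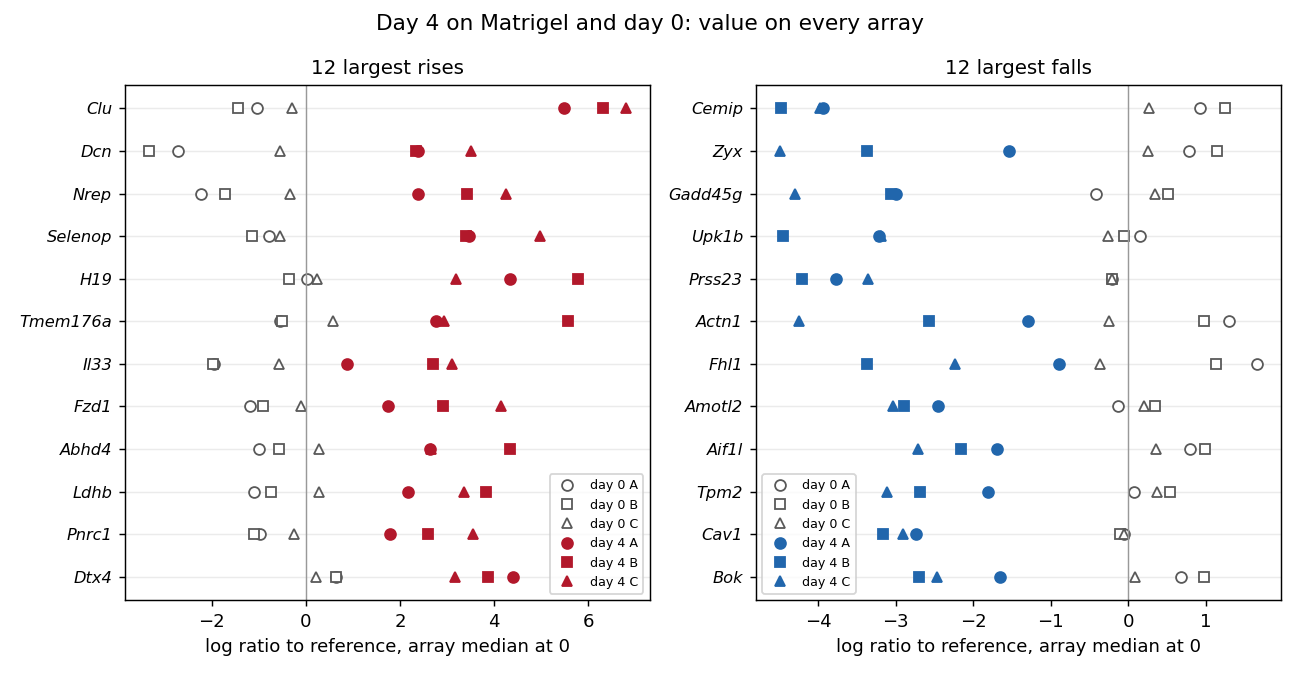
Log ratio to the reference (horizontal axis, array median at 0) on each of the 6 arrays for the 12 genes that rose most and the 12 that fell most, each past the threshold with all 6 values and no overlap between days. Open symbols are day 0 and filled symbols day 4, with circles, squares and triangles for arrays A, B and C. Clu reaches 5.48 to 6.79 at day 4, and Dcn starts from -2.72 and -3.34 on day 0 arrays A and B.

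The gene lists were chosen with earlier results of these data known, so their shares beside those of all genes are descriptions and not tests. Few liver genes were measured. Of 48 hepatoblast and hepatocyte markers, 11 had a feature under their symbol and 5 were tested. Of these 3 rose (60%, against 12.5% of all genes) and 0 fell (median change 2.13). Afp, which encodes alpha-fetoprotein, went from -0.37, -0.80 and -0.56 to 1.57, 2.36 and 0.85 (2.17 ± 0.69, adjusted p = 0.0297). Igf2, the fetal insulin-like growth factor, went from -0.16, -0.41 and -0.32 to 1.71, 2.51 and 1.29 (2.13 ± 0.59, adjusted p = 0.0136).

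The third was H19, whose locus neighbours that of Igf2. In all 3 genes array B was the highest and C the lowest of day 4, and no array of day 4 overlapped day 0. Apob, the apolipoprotein of lipoproteins secreted by liver, did not pass (0.01 ± 0.20, with 5 values). Of its 2 features 1 moved opposite to this mean. Met, the hepatocyte growth factor receptor, stood at -1.94 and -1.33 on arrays A and B but at 0.53 on C. It did not pass (-0.70 ± 0.56). Without the C arrays of days 4 to 7 it fell (-1.42, adjusted p = 0.00309), as it did with array weights (-1.16, 0.0172).

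These liver calls were narrow, and 1 of the 5 tested genes rose without day 0 array B, without day 4 array B, or with all day 0 signs turned. Afp no longer passed without any one of the day 0 arrays (adjusted p = 0.0516 to 0.0978), without day 4 array A (0.0596) or B (0.107), or with all day 0 signs turned (1.02, adjusted p = 0.357). Igf2 did not pass without day 0 array B (0.052) or day 4 array B (0.0583), nor with those signs turned (0.0852). Of the other genes that define a hepatoblast, Alb, Krt18, Dlk1 and Hnf4a had no feature under their symbol, and Krt8 had too few values for the test, with -0.71 and -1.09 on day 4 arrays A and C.

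Of 15 tested genes of plasma proteins and the acute phase, 8 rose (53.3%, against 12.5% of all genes), 0 fell and 7 did not pass, with a median change of 1.23. Of the 8, 4 encode secreted proteins. Besides Clu and Selenop these were Lbp, the plasma protein that binds bacterial lipopolysaccharide, at -1.33, -0.88 and 0.00 on day 0 and at 3.90 and 3.94 on day 4 arrays A and C (4.65 ± 0.63, 5 values). Serping1, the inhibitor of complement C1, went from -0.67, -1.03 and -0.33 to 2.05, 1.57 and 2.02 (2.56 ± 0.30, adjusted p = 8.36e-06). Changes over the 15 ran from -1.18 to 7.12. The remaining 4, named after their values were seen, belong to one signalling chain, that of the interleukin 6 family. They were picked from the members that rose and were not followed through the alternative fits. They were the shared receptor Il6st (1.66 ± 0.36), the kinase Jak1 (1.00 ± 0.24), the transcription factor Stat3 (1.22 ± 0.33) and its feedback inhibitor Socs3 (2.28 ± 0.45).

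Of the 31 lysosomal genes tested, 20 rose. Lysosomes hold acid hydrolases that degrade protein, lipid and glycan, and many of their genes share the CLEAR element, an E-box read by TFEB and its relatives. Of 54 listed genes 34 had a feature and 31 were tested. The 20 that rose made up 64.5%, against 12.5% of all genes, and 0 fell. The median change was 1.42, and all 31 estimates lay above 0 (0.09 to 2.89). The list's median stood at -0.25, -0.38 and -0.04 on the day 0 arrays and at 1.08, 1.47 and 1.02 at day 4.

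Ctsb, the protease cathepsin B, rose most, from -0.24, -0.59 and -0.04 to 2.28, 2.60 and 2.90 (2.89 ± 0.27, adjusted p = 7.36e-07). Its 4 features all moved the same way. Hexa, a hexosaminidase subunit, went from -0.68, -0.38 and 0.06 to 1.91, 2.36 and 2.25 (2.50 ± 0.27), Ctsl, cathepsin L, from -1.38, -1.11 and 0.22 to 1.28, 2.00 and 1.74 (2.43 ± 0.40), and Manba, a mannosidase, from -0.69, -0.98 and -0.21 to 1.00, 1.60 and 2.78 (2.42 ± 0.44). None of these 4 overlapped between days. Without day 4 array C, 19 members rose, and with all day 0 signs turned 13 rose and 0 fell, against 7.31% of all genes. Ctsl (0.92, adjusted p = 0.133) and Manba (1.17, adjusted p = 0.0795) were then lost.

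The promoters of Ctsl and Ctsa show what the E-box core of the CLEAR element looks like in this group. Ctsa encodes cathepsin A, which rose by 2.34 ± 0.37, and both were picked for their sequence after the values were seen. The stretches are from RefSeq on build GRCm38.p6, 90 bases each, written on the strand of the gene with the E-box in capitals. That of Ctsl lies at chr13:64370681-64370770 on the minus strand, from 250 to 161 bases before the start site, and that of Ctsa at chr2:164833683-164833772 on the plus strand, ending at the base before the start site.
Ctsl: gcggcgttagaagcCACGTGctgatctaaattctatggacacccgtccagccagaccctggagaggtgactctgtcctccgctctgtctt
Ctsa: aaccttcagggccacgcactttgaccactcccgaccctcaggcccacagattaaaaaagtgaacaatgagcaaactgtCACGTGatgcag
The motif CACGTG, which reads the same on both strands, was searched in the 250 bases before each start site. Of the 20 lysosomal genes that rose, 17 had a window in the table, with 20 windows in all. The motif was in 5 of the 20 windows (25.0%), each of another gene, and 1978 of all 32851 windows held it (6.02%). A match describes letters only.

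Autophagy delivers cytoplasm and worn mitochondria to lysosomes, and 8 of its 18 tested genes rose and 0 fell (44.4%, against 12.5% of all genes that rose), with 10 not passing. The median change was 0.72. Bnip3, a mitophagy receptor that is also induced by low oxygen, went from -1.26, -1.11 and -0.23 to 1.42, 2.85 and 2.74 (3.20 ± 0.63, adjusted p = 0.00144). Its relative Bnip3l went from -0.87, -0.73 and -0.13 to 1.54, 1.53 and 2.08 (2.29 ± 0.26, adjusted p = 6.79e-06) and all 5 of its features moved the same way.

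Map1lc3b, the protein that coats autophagosome membranes, went from -1.20, -1.06 and 0.19 to 1.29, 1.36 and 1.29 (2.00 ± 0.31), and Pink1, the kinase that marks damaged mitochondria, from -0.22, 0.07 and -0.26 to 1.25, 1.80 and 1.77 (1.74 ± 0.27). The 3 day 4 arrays of Map1lc3b were almost equal, while its day 0 array C lay above A and B. With all day 0 signs turned 5 of 18 rose, and Bnip3 (1.47, adjusted p = 0.132) and Map1lc3b (0.62, adjusted p = 0.193) did not pass. Of 9 subunits of the vacuolar ATPase, the pump that acidifies lysosomes, 2 rose (22.2%, against 12.5% of all genes) and 0 fell. They were Atp6v0d1 (1.51 ± 0.26) and Atp6v1g1 (0.88 ± 0.26), the latter lost without day 0 array A or B or day 4 array C.

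Of 22 tested genes of fatty acid oxidation and peroxisomes 9 rose (40.9%, against 12.5% of all genes), 0 fell and 13 did not pass. The enzymes of this pathway shorten acyl chains in mitochondria and peroxisomes, and carnitine palmitoyltransferase 1 controls the entry of long chains. The median change was 0.84, and the list's median went from -0.38, -0.08 and 0.01 at day 0 to 0.54, 0.62 and 0.56 at day 4. Cpt1a, the liver form of that gatekeeper, went from -0.63, -0.34 and -0.09 to 1.17, 1.47 and 2.85 (2.18 ± 0.49, adjusted p = 0.00373), with array C the highest.

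Acaa2, the mitochondrial thiolase, went from -0.76, -0.07 and 0.46 to 0.76, 1.65 and 1.66 (1.48 ± 0.35), and Hadhb, the thiolase subunit of the trifunctional protein, from -1.03, -1.00 and 0.03 to 0.06, 0.62 and 1.61 (1.43 ± 0.41). Acadm, the medium chain dehydrogenase, went from -0.86, -0.82 and 0.12 to 1.02, 0.68 and 0.92 (1.39 ± 0.42). The other 5, named after their values were seen, were Acaa1a, Hadh, Acadvl, Pex19 and Acadl, with rises of 0.88 to 1.37. In none of the 4 genes given by array did the days overlap.

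The count of this list leaned on day 0. Leaving out either A or B of day 0 left 5 that rose, and with all day 0 signs turned 4 rose. Hadhb and Acadm did not pass without day 0 array A (adjusted p = 0.0828 and 0.0988), day 0 array B (0.0833 and 0.0983) or day 4 array C (0.112 and 0.0619), and Acadm also not without day 4 array A (0.0603). Against the reference channel alone 11 of 22 rose, against 17.6% of all genes. Of 48 tested subunits of oxidative phosphorylation 3 rose and 4 fell, shares (6.25% and 8.33%) below those over all genes (12.5% and 10.0%). The counts were 0 and 2 once day 0 array A was left out, and 1 and 2 once B was. Sdha of complex II rose (1.29 ± 0.37, lost without day 0 array A, day 0 array B or day 4 array C, adjusted p = 0.0924, 0.0548 and 0.0876), and Cycs, cytochrome c, fell from 0.61, 0.67 and -0.18 to -1.53, -1.26 and -1.32 (-1.74 ± 0.21, adjusted p = 1.32e-05).

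Of the tested genes of DNA replication and mitosis, 54.2% fell. Of 85 listed 68 had a feature and 59 were tested, and 32 of these fell and 0 rose, against 10.0% of all genes that fell. The median change was -0.97. The list's median went from -0.07, 0.06 and 0.07 at day 0 to -0.90, -0.95 and -0.99, so that the 3 arrays of day 4 gave almost the same value. Rrm2, the small subunit of ribonucleotide reductase, went from 0.72, 0.31 and -0.65 to -1.94, -2.17 and -3.12 (-2.54 ± 0.50, adjusted p = 0.00156).

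Cks2, a partner of cyclin-dependent kinases, went from 1.37, 1.45 and -0.16 to -1.17, -1.40 and -2.37 (-2.53 ± 0.41), Cdc6, a licensing factor of replication origins, from 0.65, 0.90 and 0.09 to -1.31, -1.53 and -2.15 (-2.21 ± 0.34), and Ube2c, the ubiquitin ligase partner that ends mitosis, from 0.56, 0.75 and 0.09 to -1.06, -1.15 and -2.08 (-1.90 ± 0.34). In each of these 4 genes array C was the lowest of day 4. Without that array 29 members fell (6.43% of all genes), and with all day 0 signs turned 27 fell (7.56%), when Cks2 (-0.76, adjusted p = 0.239) and Ube2c (-0.96, adjusted p = 0.0668) did not pass. Over the list, C lay below both A and B in 29 of the 57 members with 3 values and above both in 17. Mki67, the marker of dividing cells, did not pass. It stood at -1.82 and -1.86 on A and B but at 0.85 on C, and without array C it passed (-2.10, adjusted p = 0.0449).

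Promoters of cell cycle genes are known for CCAAT boxes and for the cell cycle homology region. Of 2 genes that encode sister proteins, Cks2 shows only the first and Cks1b both, its CCAAT boxes left in small letters. Cks1b was picked for its sequence after the values were seen and fell by 1.70 (± 0.23). The 90 bases before the start site are given on the strand of the gene (RefSeq, GRCm38.p6), for Cks2 at chr13:51645142-51645231, plus strand, with CCAAT or its reverse ATTGG in capitals, and for Cks1b at chr3:89418292-89418381, minus strand, with TTTGAA or its reverse TTCAAA in capitals.
Cks2: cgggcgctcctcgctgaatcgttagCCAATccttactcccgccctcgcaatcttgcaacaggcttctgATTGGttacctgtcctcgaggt
Cks1b: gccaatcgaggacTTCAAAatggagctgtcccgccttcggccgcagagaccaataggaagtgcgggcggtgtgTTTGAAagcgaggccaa
Both motifs were searched on both strands in the 250 bases before each start site. Of the 32 genes that fell, 26 had a window, 29 windows in all. CCAAT was found in 21 of these windows (72.4%) and in 33.8% of all 32851 windows. TTTGAA was found in 11 (37.9%) and in 5252 of all windows. These shares describe letters and are not a test.

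Of 21 tested genes of the nucleolus and of ribosome assembly 9 fell (42.9%, against 10.0% of all genes), 0 rose and 12 did not pass (median change -0.69). Ddx21, a helicase of ribosomal RNA synthesis and processing, went from 0.60, 0.80 and 0.05 to -1.27, -1.88 and -1.53 (-2.04 ± 0.27, adjusted p = 3.01e-05), with its 3 features moving the same way. Noc2l, a nucleolar protein, went from 0.36, 0.55 and 0.29 to -0.75, -1.24 and -1.66 (-1.62 ± 0.29).

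Mrto4, a factor of the large subunit, went from 0.37, 1.06 and 0.45 to -0.44, -0.97 and -2.51 (-1.94 ± 0.55), and Nhp2, a protein of the RNAs that guide pseudouridylation, from 0.83, 0.75 and -0.13 to -0.71, -0.28 and -1.68 (-1.38 ± 0.42). In Mrto4 and Nhp2 array C was the lowest, and neither passed without it (adjusted p = 0.105 and 0.134) or without day 0 array B (0.0782 and 0.097), nor Nhp2 without day 0 array A (0.101). The list's count was 5 without day 4 array C, 4 without day 0 array B, and 2 with all day 0 signs turned, when 1 member rose. Of 57 cytoplasmic ribosomal proteins 1 fell (Rpl27, -0.90 ± 0.25, lost without day 0 array A or B or day 4 array C, adjusted p = 0.083, 0.0759 and 0.0558) and 0 rose. Their median change was -0.09, and whether the 2 lists differ was not tested.

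**Figure D2:**
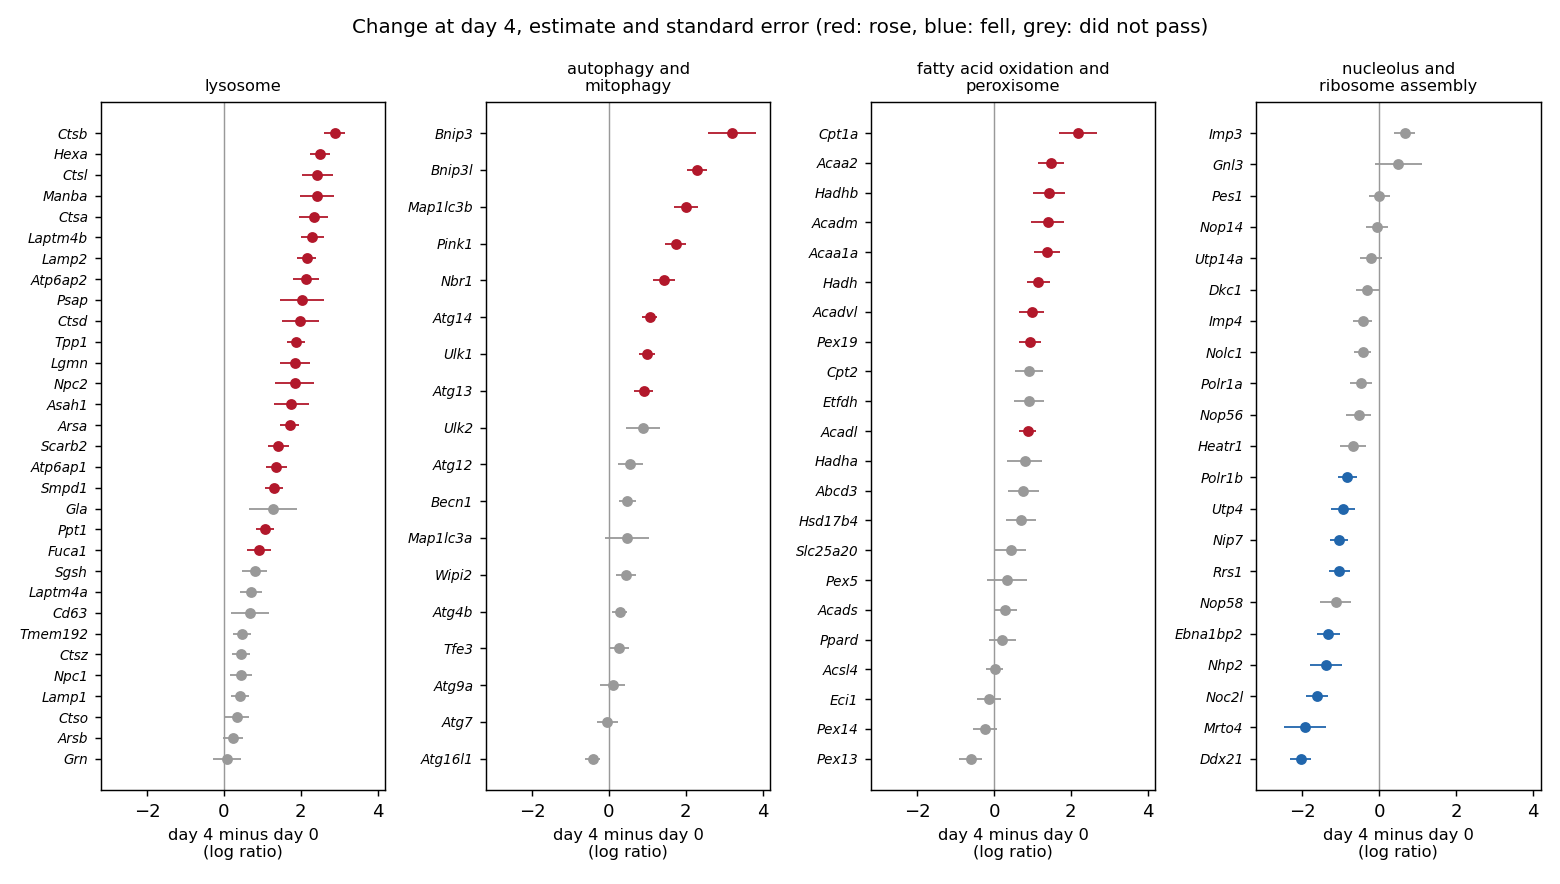
Change from day 0 to day 4 (horizontal axis, log ratio) with its standard error for every tested member of 4 lists, namely 31 lysosomal, 18 autophagy, 22 fatty acid oxidation and 21 nucleolar genes. Red members rose, blue members fell and grey members did not pass. All 31 lysosomal estimates lie above 0, and the nucleolar list runs from 0.66 down to -2.04.

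Of 40 tested genes of the actin cytoskeleton 17 fell (42.5%, against 10.0% of all genes), 1 rose and 22 did not pass, with a median change of -0.91. The list's median stood at 0.13, 0.20 and 0.03 on the day 0 arrays and at -0.56, -0.78 and -0.91 on those of day 4. Zyx, Actn1, Fhl1 and Tpm2 above belong to it. Actb, beta-actin, often taken as a constant control, went from 1.40, 1.00 and -0.67 to -1.10, -1.60 and -3.82 (-2.75 ± 0.84, adjusted p = 0.0244). It did not pass without day 0 array A (0.111), day 0 array B (0.0926) or day 4 array C (0.14). Gapdh, another common control, gave -0.54, -0.25 and 0.76 at day 0 and -0.41, 0.00 and -2.67 at day 4, which overlapped and did not pass (-1.02 ± 0.67).

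Of 23 integrin and focal adhesion genes 3 rose and 4 fell, shares (13.0% and 17.4%) near those over all genes (12.5% and 10.0%). With day 0 array A left out 1 rose, and with day 0 array B or day 4 array C left out 2 fell. Itga3, a receptor subunit for laminins, went from 0.96, 1.26 and 0.46 to -0.44, -1.72 and -2.82 (-2.55 ± 0.66), and did not pass without day 4 array C (-1.97, adjusted p = 0.061). Itgb5, a receptor subunit for vitronectin, went from -1.62, -1.59 and 0.35 to 1.77, 0.87 and 0.90 (2.14 ± 0.42), and Itgb3 from -0.70 and 0.63 on day 0 arrays A and C to 1.24, 2.52 and 2.88 (2.25 ± 0.49, not past the threshold without day 0 array A, adjusted p = 0.0819). Cav1, caveolin, stood at -2.73, -3.17 and -2.91 at day 4 against -0.06, -0.11 and -0.06 (-2.86 ± 0.36, adjusted p = 1.72e-05), with the arrays of each day close together.

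Of 15 junction and polarity genes 5 fell (33.3%, against 10.0% of all genes) and 0 rose. Gja1, the gap junction protein connexin 43, went from 0.36, -0.25 and -0.76 to -2.20, -2.71 and -1.81 (-2.02 ± 0.35). Pard6b, a polarity protein, went from 0.28, 0.44 and 0.15 to -1.22 and -2.24 on arrays A and C (-2.03 ± 0.43, adjusted p = 0.0576 without array C). Without day 4 array C 2 of the list's members fell, and 3 did without day 0 array A or B. In the Hippo list, whose kinases restrain growth at high cell density, 5 of 14 fell (35.7%, against 10.0% of all genes) and 1 rose. Amotl2 led with -2.45, -2.90 and -3.04 at day 4 against -0.13, 0.35 and 0.21 (-2.94 ± 0.35), and Wwc1 (-2.83), Lats2 (-1.34) and Tead1 (-1.17), regulators and a transcription factor of the pathway, fell too. Leaving out day 0 array A gave 2 that fell, and leaving out day 0 array B or day 4 array C gave 3. Wwc1 did not pass without day 4 array C (adjusted p = 0.111), Tead1 not without day 0 array A (0.072), and Lats2 not without day 0 A or B or day 4 A or B (0.0579 to 0.125).

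Among matrix genes 6 of 23 rose (26.1%, against 12.5% of all genes) and 2 fell (8.7%, against 10.0%). With all day 0 signs turned 3 rose and 0 fell. None fell without day 0 array A, day 0 array B or day 4 array A, and 1 did without day 4 array B or C. Tgfbi, a matrix protein induced by TGF-beta, stood at -0.59, -0.95 and -0.30 at day 0 and at 2.93 and 3.77 on day 4 arrays A and C (3.96 ± 0.55, 5 values). Olfml3, a secreted olfactomedin protein, went from -1.74, -1.29 and 0.40 to 2.27, 3.12 and 1.53 (3.19 ± 0.50). Proteases of the matrix and their inhibitors were split, 4 higher (26.7%, against 12.5% of all genes) and 3 lower (20%, against 10.0%) of 15. With day 0 array B left out 2 were higher. Plat, the tissue plasminogen activator, rose (2.29 ± 0.66, 5 values, lost without day 0 array B or day 4 array A, adjusted p = 0.0777 and 0.151), and Timp3, an inhibitor of metalloproteases, went from -0.79, -0.55 and 0.03 to -2.91, -2.97 and -3.48 (-2.68 ± 0.36).

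Fibroblast markers stand for the STON+ feeder cells. Members such as Dcn were also in the matrix list, so the 2 lists are not independent. Of 26 listed fibroblast markers 12 were tested, and 5 rose (41.7%, against 12.5% of all genes) and 0 fell. Their list median was -0.68, -0.49 and 0.11 on the day 0 arrays and 0.67, 0.67 and 0.62 at day 4. Those that rose were Dcn, Pdgfrb (1.76 ± 0.50), Col6a1 (1.62 ± 0.44), Col1a2 (1.04 ± 0.37) and, named after its values were seen, Prrx1 (1.01 ± 0.26). Vim, vimentin, did not pass (0.32 ± 0.42), and Pdgfra, Col1a1 and Thy1 had no feature under their symbol. The count fell to 2 without day 0 array A, to 1 without day 0 array B, to 2 without day 4 array A and to 1 with all day 0 signs turned. Col1a2 was lost when any one of 5 of the 6 arrays was left out (adjusted p = 0.077 to 0.195). Pdgfrb (adjusted p = 0.0528 to 0.168) and Col6a1 (0.0587 to 0.0635) were lost without day 0 array A, day 0 array B or day 4 array A. The part of fibroblast RNA in these results was not tested. Of the other cell types, 1 of 3 blood cell markers rose (Tyrobp, 2.31 ± 0.58, with adjusted p = 0.0706 without day 0 array B), 0 of 1 endothelial marker changed, and 1 of 2 smooth muscle markers fell (Smtn, -1.06 ± 0.25).

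In the TGF-beta and BMP list 7 of 26 rose (26.9%, against 12.5% of all genes) and 5 fell (19.2%, against 10.0%). Bmp4, a ligand, went from -0.23, -0.17 and 0.01 to -2.23, -2.63 and -3.26 (-2.58 ± 0.51, adjusted p = 0.00159), and Fst, the secreted inhibitor follistatin, from -0.46, 0.03 and -0.22 to -2.50, -1.79 and -2.64 (-2.09 ± 0.29). The targets Id2 (-0.55 ± 0.59) and Id3 (0.47 ± 0.35) overlapped between days and did not pass. Id3 stood at 0.70 and 0.52 on day 4 arrays A and B but at -0.36 on C. It passed without the C arrays of days 4 to 7 (0.79, adjusted p = 0.0254) and with array weights (0.77, 0.0194). Of the list 3 rather than 5 fell without day 0 array B or day 4 array B.

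In the Wnt list 4 of 18 rose (22.2%, against 12.5% of all genes) and 1 fell (5.56%, against 10.0%). When day 0 array A or day 4 array C was left out 2 rose. Ctnnb1, beta-catenin, the pathway's effector, went from -0.33, -0.47 and -0.58 to 0.33, 0.68 and 1.74 (1.38 ± 0.32, adjusted p = 0.00422), and the receptor Fzd3 rose by 0.95 ± 0.30 (lost without day 0 A, day 0 C or day 4 C, adjusted p = 0.157, 0.0601 and 0.118). In the Notch list 2 of 13 rose, Dtx4 and Hes6 (1.04 ± 0.32), and 0 fell. That share of rises (15.4%) was near the share over all genes (12.5%). Hes6 did not pass without day 0 array A or B or day 4 array A or C (adjusted p = 0.0563 to 0.123). Of the bile duct and progenitor markers 6 of 30 were tested, and 1 rose (16.7%, near the 12.5% of all genes). It was Anxa4, an annexin of ducts (1.18 ± 0.21). The list's median on array C lay below 0 (-0.43) and those on A and B above it (0.95 and 0.67). Krt19 had too few values, Jag1 had a value on 1 array of 24, and Sox9 had no feature under its symbol.

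Of 22 growth arrest and stress genes 7 rose (31.8%, against 12.5% of all genes) and 3 fell (13.6%, against 10.0%). With all day 0 signs turned 4 rose. Sesn1, a sestrin that restrains mTORC1, went from -0.48, -0.45 and -0.34 to 2.25, 2.05 and 2.80 (2.79 ± 0.36, adjusted p = 2.74e-05). Txnip, the thioredoxin inhibitor, went from -0.31, -0.49 and -0.15 to 2.81, 1.01 and 1.89 (2.22 ± 0.54). Among detoxification genes 4 of 23 rose and 4 fell (17.4% each, against 12.5% and 10.0% of all genes). Without day 0 array A, day 0 array B or day 4 array A 2 fell. Mgst1, a membrane glutathione transferase, went from -0.59, -0.64 and -0.02 to 2.01, 2.67 and 2.67 (2.87 ± 0.35), and Aldh1a1, a retinaldehyde dehydrogenase, from 0.25, 0.51 and 0.27 to -2.07, -3.16 and -2.27 (-2.85 ± 0.35, adjusted p = 1.59e-05).

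The remaining lists gave few calls. Of 9 tubulins and mitotic microtubule genes 4 fell (44.4%, against 10.0% of all genes). That count was 1 without day 4 array C, and 2 without day 0 array B or C or day 4 array A. Of 9 immediate early genes 1 rose (11.1%, against 12.5% of all genes), Zfp36l1 (2.05). Glycolysis and hypoxia genes were called higher in 4 (25%, against 12.5% of all genes) and lower in 1 (6.25%, against 10.0%) of 16 cases. None was lower without any one of day 0 A, day 0 B or day 4 A. Of 26 proteasome genes 0 passed the threshold (median change -0.26), and of 27 cytosolic chaperones 1 rose (3.7%). Among 24 genes that handle unfolded protein 2 were called higher (8.33%) and 1 lower (4.17%). Of 41 translation factors 2 rose (4.88%) and 4 fell (9.76%). Over all genes 12.5% rose and 10.0% fell. The chaperone was lost when any 1 of the 6 arrays was left out, and 0 translation factors fell without day 0 array B. In sterol synthesis Idi1 (-1.36 ± 0.37), Sqle (-1.24 ± 0.33) and Msmo1 (-0.71 ± 0.21) fell, 20% of the 15 tested against 10.0% of all genes. Insig2, which holds back the sterol sensor, rose (1.27 ± 0.20), and 11 of 15 did not pass. Idi1 and Sqle did not pass without day 0 array B (adjusted p = 0.0509 and 0.0503) or day 4 array C (0.0671 and 0.0963), and Msmo1 not without 4 of the 6 arrays (0.051 to 0.138). Hif1a, the oxygen-regulated transcription factor, rose by 1.21 ± 0.32 but was lost without day 0 array B (0.0526) or day 4 array C (0.0687), and its estimate was -0.08 with all day 0 signs turned.

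That reversal of day 0 also ended the calls of other genes given above. Among metabolic and lysosomal genes these were Hadhb (0.10, adjusted p = 0.9), Acadm (0.35, 0.633), Sdha (0.94, 0.0924) and Atp6v1g1 (0.19, 0.68). Among cytoskeletal, adhesion and matrix genes they were Actb (-1.60, adjusted p = 0.223), Itgb5 (0.22, 0.778), Itga3 (-0.76, 0.484), Wwc1 (-1.61, 0.141), Lats2 (-0.97, 0.125), Olfml3 (1.43, 0.0598), Plat (0.94, 0.377), Pdgfrb (1.23, 0.109) and Col1a2 (0.07, 0.927). Among nucleolar genes they were Noc2l (-0.81, adjusted p = 0.0685), Mrto4 (-0.68, 0.45) and Nhp2 (-0.41, 0.565), and Rpl27 was lost as well (-0.26, 0.536). Ctnnb1 (0.46, adjusted p = 0.366), Fzd3 (0.79, 0.0847), Hes6 (0.57, 0.263), Txnip (1.58, 0.0523), Zfp36l1 (0.24, 0.691) and Tyrobp (0.82, 0.38) were lost too.

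**Figure D3:**
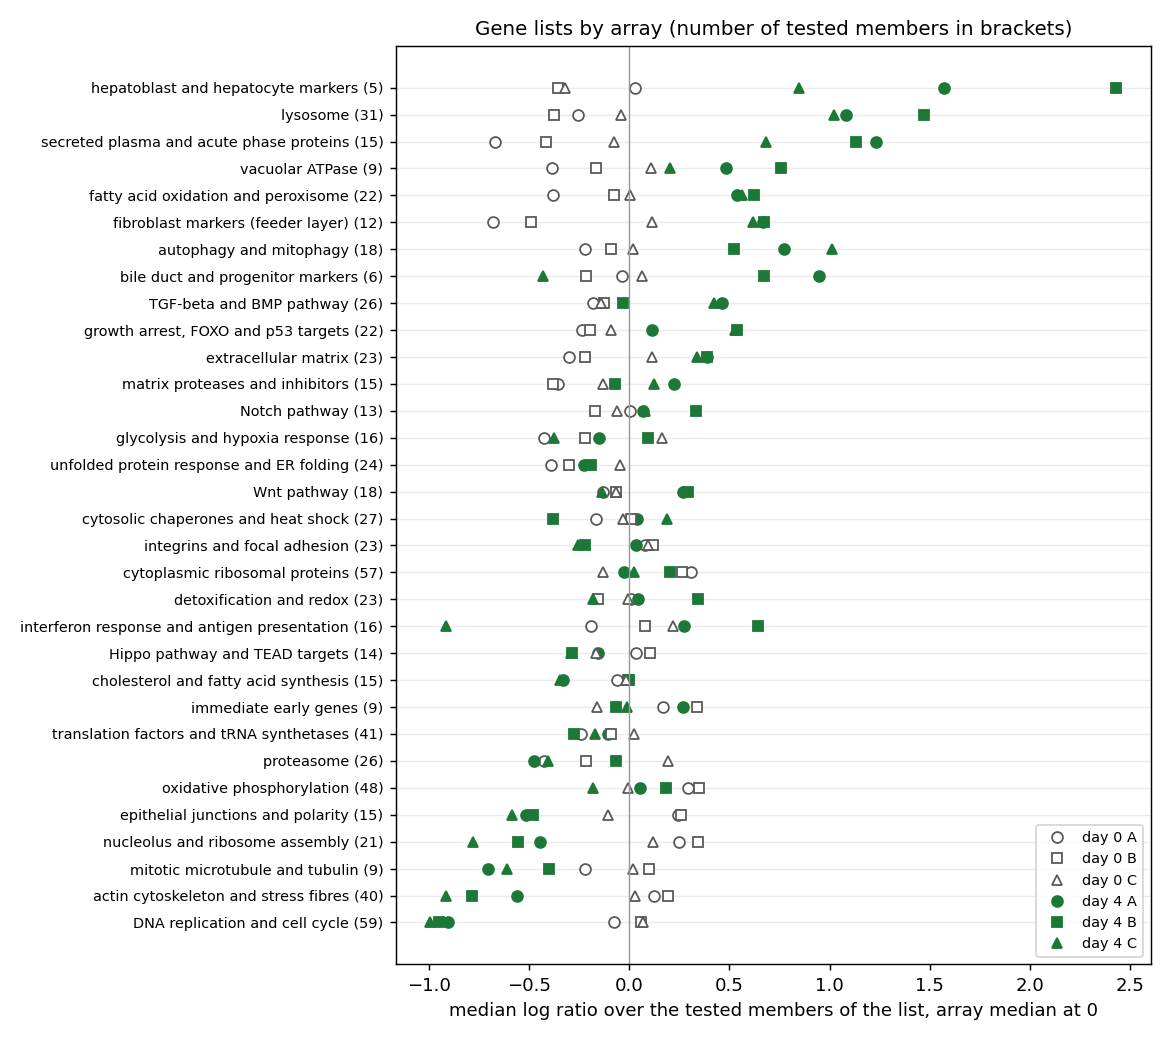
Median log ratio over the tested members of each list with at least 5 of them (number in brackets), on the day 0 arrays (open) and the day 4 arrays (filled), with circles, squares and triangles for arrays A, B and C. The cell cycle list sits at -0.90 to -0.99 on the 3 arrays of day 4, the lysosomal list at 1.02 to 1.47, and the interferon list splits, with array C at -0.91 and A and B at 0.27 and 0.64.

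Array C of day 4 was examined apart from A and B. Among the 1124 called genes with values on all 3 arrays of day 4, C lay on the side of the change for all 634 that rose and all 490 that fell, as measured from the day 0 mean. It exceeded both A and B in 316 of the risers and lay below both in 160. It lay below both in 254 of the fallers and above both in 112. The calls rest on day 4 means that include array C, which tends to leave out genes where C opposed A and B. These counts of called genes therefore cannot show whether C moved with A and B. Of 4950 genes with the 3 values, C was more than 1 from the mean of A and B in 1017 (20.5%), of which 163 were called. A was more than 1 from B in 385 of 4950, whereas C was more than 1 from A in 1104 and from B in 1222.

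The genes furthest below on array C were Raly, Adgra2, Nfib, Hdgf, Nek6, Cuedc2, Bst2 and Ptms. Raly, an RNA binding protein, stood at 0.70, -0.29 and -4.11 on A, B and C, and Hdgf, a growth factor first purified from hepatoma cells, at -0.14, -0.30 and -3.99. Adgra2, an adhesion receptor of Wnt signalling, stood at 1.61, 2.39 and -2.04. None of these 8 passed the test against day 0. Without the C arrays of days 4 to 7, Adgra2 (1.91, adjusted p = 0.00318), Cuedc2 (1.76, 0.00433) and Bst2 passed, and the other 5 did not. The genes furthest above on array C were Mki67, Pgrmc1, Patj, Ptgfrn, Met, Mir100hg, Mrfap1 and Ikbkb, of which Ptgfrn passed. Ptgfrn, a regulator of the prostaglandin F receptor, stood at 1.07, 1.82 and 3.65 (2.54 ± 0.54).

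The distance of array C from A and B varied between gene groups. In the interferon and antigen presentation list, whose genes answer viral infection, array C lay below both A and B in 10 of 16 members (62.5%, against 39.7% of all genes) and was more than 1 away from their mean in 8 (50.0%, against 20.5%). Bst2, tetherin, stood at -1.50, -0.98 and -4.79 against -0.11, 0.23 and 0.43 at day 0 (-2.61 ± 0.95, adjusted p = 0.0545), below day 0 on all 3 arrays. Its call depended on the fit. It passed without the C arrays of days 4 to 7 (-1.42, adjusted p = 0.00103), without day 4 array B (-3.33, 0.0296), against the reference channel (-2.42, 0.00892), with scaled (-2.20, 0.0083) or quantile-normalized arrays (-2.38, 0.0056), and with array weights (-1.97, 0.00693). It did not pass without day 4 array C alone (-1.42, 0.31). The antigen transporter Tap2 and the membrane protein Ifitm2, both named after their values were seen, stood at 0.80 and 1.23 on A, at 1.24 and 1.20 on B and at -1.05 and -1.09 on C. Usp18 (-2.29 ± 0.34) and Rsad2 (-2.02 ± 0.38), by contrast, were below day 0 on all 3 arrays and fell. Irf1 rose (1.63 ± 0.33), though not with all day 0 signs turned (0.62, adjusted p = 0.232). The list's only calls were thus 1 of 16 higher (6.25%, against 12.5% of all genes) and 2 lower (12.5%, against 10.0%). In the lysosomal list C lay below both in 11 of 31 and above both in 10, and in the cell cycle list below both in 29 of 57 (50.9%, against 39.7% of all genes). The median of the 6 bile duct markers was 0.95 on A, 0.67 on B and -0.43 on C. In that list C was more than 1 from the mean of A and B in 2 of the 5 members with 3 values. It lay below both in 2 of the 5 and above both in 1. Taken gene by gene, the median difference of C from the mean of A and B was -0.06. The drop in the list's median on C was therefore not that of a typical member.

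**Figure D4:**
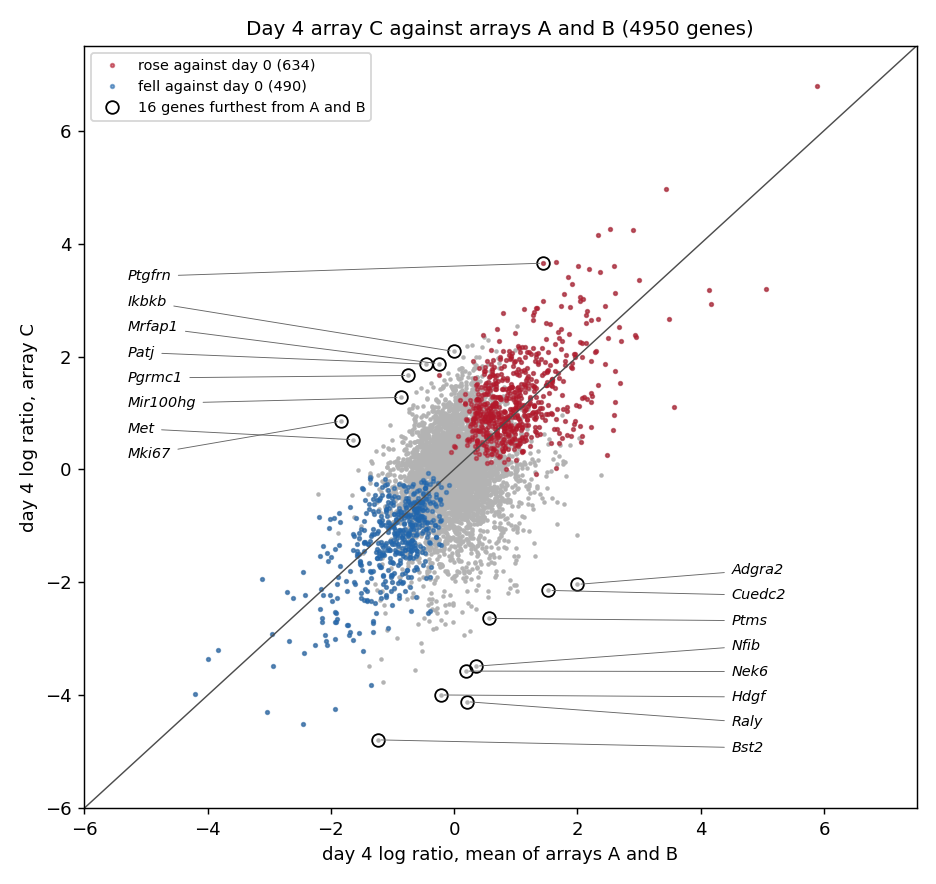
Day 4 log ratio on array C (vertical axis) against the mean of arrays A and B (horizontal axis) for the 4950 genes with values on all 3, with the line of equality. Red and blue points rose or fell against day 0 (634 and 490 genes), grey points did not pass, and circles mark the 16 genes furthest from the line. Bst2 lies at -4.79 on array C and Mki67 at 0.85.

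Day 4 was also set against its neighbours, to ask whether the state was still moving. Against day 3, 0 of 10639 units passed (limma), with 204 at an unadjusted p below 0.05 (1.92%), and against day 4, day 5 gave 0 calls with 44 (0.414%). The failure to pass does not show that the days were alike. Clu changed by 0.44 ± 0.54 from day 3 to day 4 and by -0.17 ± 0.54 to day 5, and H19 by 0.96 ± 0.84 and -0.43 ± 0.84. The fit did not pair arrays by letter. The errors of the step to day 5 therefore include spread between letters that days 4 and 5 shared. By letter, H19 went from 4.3, 5.8 and 3.2 at day 4 to 4.0, 5.2 and 2.8 at day 5, lower on each array. Clu was lower at day 5 on A and B and higher on C. Cemip, the largest fall, moved by 0.46 ± 0.44 from day 3 and by 1.44 ± 0.49 to day 5, the latter towards its day 0 level at an unadjusted p of 0.00866 (adjusted p = 1). The median change of the cell cycle list was 0.21 from day 3 to day 4 and 0.01 to day 5, and that of the lysosomal list 0.17 and 0.00.

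The letter carried over between days 4 and 5. Deviations of the arrays from their day's mean correlated at 0.788, 0.762 and 0.912 for letters A, B and C of the 2 days. Between day 0 and day 4 they correlated at -0.02, -0.05 and -0.10. A limma fit of days 4 and 5 alone with the letter as a block, chosen after seeing the data, called 0 units. It gave 551 at an unadjusted p below 0.05. In the interferon list the median on array C was 0.14 at day 3, -0.91 at day 4 and -1.27 at day 5, while arrays A and B lay at 0.07 and 0.13, at 0.27 and 0.64, and at -0.20 and -0.06. Lysosomal medians at the 3 days were 0.78, 1.08 and 1.15 on array A, 1.59, 1.47 and 1.38 on B, and 1.08, 1.02 and 0.95 on C. What the letters stand for is not given in the labels.

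**Figure D5:**
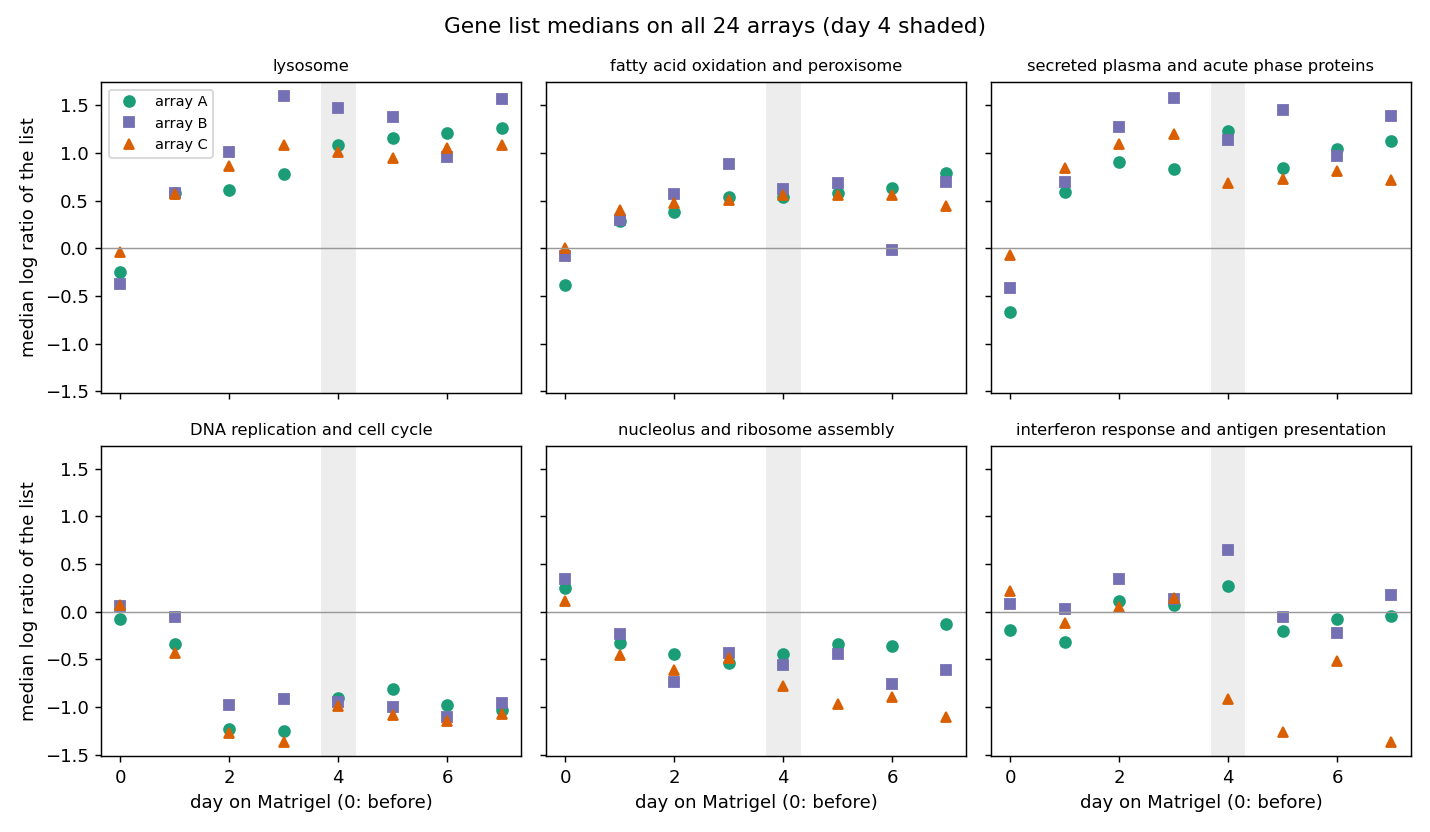
Median log ratio of 6 lists (vertical axis) on all 24 arrays by day (horizontal axis), with circles, squares and triangles for arrays A, B and C and day 4 shaded. Lysosomal medians lie at 1.02 to 1.47 at day 4 and cell cycle medians at -0.90 to -0.99, and in the interferon panel array C drops to -0.91 at day 4 and -1.27 at day 5.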

How the data were processed

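The authors deposited log ratios, read as log2 with Cy5 as numerator, for 24157 features on 24 arrays. How the arrays were scanned, background-corrected and normalized, and why cells are empty, is not given in the sources used here. Deposited medians were 0.0118, -0.0052 and 0.0005 for day 0 arrays A to C and 0.0073, -0.0086 and 0.0065 for day 4. Each array was centred on its median. The platform annotation gave 1 symbol to 13319 features (13290 updated through Entrez identifiers, 29 kept), several to 589, and did not list 10249. Features sharing one of the 8315 symbols were averaged. Units with at least 2 values on every one of 8 days were tested, 5660 genes and 4979 unnamed features.

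Means of 8 days were fitted with limma 3.58.1 (R 4.3.3), 2-sided, with Benjamini-Hochberg adjustment. On simulated data for the comparison with day 0 (10639 units, 200 changed), the tested fit recovered 31% of changes of 1 and 92% of changes of 2, with 11 false calls (8.21% of calls). Only 200 units were changed there, while 2359 passed in the data, and no carry-over by letter was simulated. These rates therefore do not describe the test on the data themselves. The number of arrays limits the precision. The arrays, members, rules and lists were chosen with earlier results of these data known. The lists hold 1383 different genes.

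Named genes were the 12 largest rises and 12 largest falls with 6 values and no overlap, up to 4 called members of each list, 16 fixed genes, and the 8 genes furthest above and 8 furthest below on day 4 array C. Up to 5 a direction were due for day 4 against 3 and day 5 against 4, where none passed. Some are given as counts only. Letters paired days 4 and 5 (correlations of deviations 0.788, 0.762 and 0.912), which the labels do not explain, and a fit blocked on letter still called 0 units. Between days 3 and 4 the correlations were 0.00, 0.15 and 0.10. Alternatives covered scaling, filters, array weights, the letter as a block, turned signs and leaving out each array.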

Additional observations from a re-analysis of the deposited data

How the results depend on the processing

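Of 2359 units past the threshold, 1212 passed with only the 2 days fitted, 3909 with array weights and 1499 with all day 0 signs turned, of which 1192, 2302 and 958 were called in the same direction in both fits. Leaving out 1 array gave 1228 to 2585 calls, the lowest without day 0 array B. Scaling, quantile normalization, no centring, a filter on the 2 days, values on all 24 arrays, single features, day 0 array C turned, day 4 against the reference channel and omission of the late C arrays gave 1646 to 3422. The letter is no pairing of day 0 with day 4 (deviations correlated at -0.02, -0.05 and -0.10); with it as a replicate block 2965 units passed. Of 109 named genes with a call, 60 kept it with all day 0 signs turned, when Hif1a changed sign (-0.081, adjusted p = 0.895), 105 against the reference channel, 81 without day 4 array C, and 83 and 78 without day 0 arrays A and B. Day 4 against day 3 gave 0 calls except without the C arrays of days 4 to 7 (1 call), and day 5 against day 4 gave 0 under all alternatives, among them a fit of days 4 and 5 alone with the letter as a block, chosen after seeing the data (551 at an unadjusted p below 0.05). Leaving out an array there gave 0 to 0 calls. The causes of these differences were not tested. In the simulated data, which differ from these in the share of units changed, changes of 1 were often not called.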

Other observations

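Of the list members, 36 had too few values on other days for the main test but were measured at days 0 and 4. Their adjusted p comes from limma with a filter on those 2 days alone. Over all units that filter kept 12256, of which 2650 passed, 1288 higher and 1362 lower. The members that passed are given here, and the others did not pass. Genes of replication and mitosis were among those that fell, but Chek1 (-0.32 ± 0.21, adjusted p = 0.292) and Cenpe (-0.48 ± 0.53, 0.547) of the same list did not pass. Cdc20, which activates the ligase that ends mitosis, went from -0.15, 0.19 and 0.44 at day 0 to -1.55, -1.09 and -1.84 (-1.65 ± 0.30, adjusted p = 0.00172). Cdca8, of the chromosomal passenger complex, gave -1.44 ± 0.33 (adjusted p = 0.00688) and Pcna, the sliding clamp of replication, -1.03 ± 0.24 (adjusted p = 0.0164), each with 5 values.

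Cnn1, calponin of smooth muscle and stress fibres, had the largest fall of these genes, from -0.51, 0.18 and 0.57 to -2.20 and -2.50 on day 4 arrays A and C (-2.43 ± 0.33, adjusted p = 0.000599). Krt8, the keratin of simple epithelia such as hepatoblasts, fell by 0.96 (± 0.22, adjusted p = 0.011, 5 values). Pex11a, which drives division of peroxisomes, rose from -0.26 and -0.18 on day 0 arrays A and B to 1.72 and 1.25 on day 4 arrays A and B (1.70 ± 0.38, adjusted p = 0.006). Tle3, a co-repressor in Wnt signalling, rose by 1.72 ± 0.38 (adjusted p = 0.00566, 4 values). Dkk3 (0.72, adjusted p = 0.125), Wnt2 (0.46, 0.259) and Sfrp2 (-0.09, 0.912) of the Wnt list did not pass. Eif3e, a translation factor, rose by 1.20 ± 0.41 (adjusted p = 0.0488, 5 values). These genes were named after their values were seen, and array C of both days gave no value for Pex11a or Tle3.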
